A study of Mus musculus with 12 samples.

Results

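The glutathione and antioxidant defence genes described here are 10 named mouse genes, Slc7a11, Gclc, Gclm, Gss, Gpx1, Gpx4, Prdx6, Gstm1, Gstm5 and Nfe2l2, found by symbol among the 52550 features of the deposited count table. Each symbol matched 1 row, and all 10 genes passed the filter on low counts that left 14990 genes tested. Their ribosome-bound RNA was measured by translating ribosome affinity purification (TRAP), in which tagged ribosomes are pulled out of tissue with the RNA they carry. The knockout group was Fmr1−/y Aldh1l1-TRAP mice and the wild-type group was Fmr1+/y Aldh1l1-TRAP mice, both on an FVB/C57 background at postnatal day 40. Both groups carry the transgene, in which the astrocyte promoter Aldh1l1 marks the ribosomes that anti-eGFP beads capture, and Fmr1 is lost in every cell of the knockout and not only in astrocytes. The tissue was 1 mm sections of somatosensory cortex. Libraries 14, 16 and 18 are knockout (KO) and libraries 13, 15 and 17 are wild type (WT), each deposited as 2 entries that were summed. The labels do not say whether a library came from 1 animal or from a pool, so the tests measure only the spread between libraries, which may be technical.

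Glutathione is the main small thiol antioxidant of cells, and in the brain astrocytes are known for making it and for exporting it to support neurons. The exchanger encoded by Slc7a11 brings in cystine, the enzyme glutamate-cysteine ligase (Gclc with its modifier Gclm) and then glutathione synthetase (Gss) build the tripeptide, and peroxidases and S-transferases spend it on peroxides and on reactive compounds. NRF2, the transcription factor encoded by Nfe2l2, is known to switch on many of these genes through antioxidant response elements, short promoter sequences, and astrocytes are known for strong NRF2 activity.

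Promoter windows (GRCm38.p6) of 250 bases before to 50 bases after the annotated start were available for 8 of the 10 genes. Gclc and Prdx6 had no window. The core letters of the antioxidant response element, TGACNNNGC, were searched on both strands. They occurred in 3 of the 8 genes (37.5%), against 14% of the 27025 genes with a window, and in 3 of 12 windows (25%) against 12.4% of the 32851 windows. A match is a description of letters and not a bound site. The 60 bases around each match are printed 5′ to 3′ on the strand of the gene, with the match in capitals, so that the same 3 genes can be followed in the values below. In Gclm the match lies on the opposite strand, so its capitals read as the reverse complement of the searched letters.
Nfe2l2, chr2:75704854-75704913, minus strand: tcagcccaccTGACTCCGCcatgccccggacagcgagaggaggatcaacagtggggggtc
Gstm5, chr3:107895787-107895846, plus strand: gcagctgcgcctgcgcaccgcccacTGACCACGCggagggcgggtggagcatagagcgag
Gclm, chr3:122245398-122245457, plus strand: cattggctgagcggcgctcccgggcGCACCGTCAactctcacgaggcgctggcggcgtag
The first base of the match lies 240 bases before the annotated start in Nfe2l2 and 42 bases before it in Gstm5. In Gclm it lies 134 bases before the transcript start of its window (position 122245557), and 64 bases before the outermost start of the gene record given below.

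Total counts ran from 10953958 to 21696862 in the KO libraries and from 19787520 to 22397202 in the WT libraries. The features CT010467.1, Lars2 and AY036118, which are known to gather ribosomal RNA reads, held 35.6% and 45.1% of the counts in KO libraries 14 and 16 and 0.892% in KO library 18, against 0.939% to 7.45% in the WT libraries. Fmr1 itself was at 4.32, 4.22 and 1.32 CPM in the KO libraries, against 31.6, 38.4 and 37.0 CPM in the WT libraries (log2 fold change -3.53, SE 0.41, adjusted p 0.300 by edgeR's quasi-likelihood fit and 3.18e-16 by DESeq2). The astrocyte marker Aldh1l1 was detected in every library, from 380 to 453 CPM in the KO and from 415 to 439 CPM in the WT. Not all astrocyte markers were as even, and their medians by library are given below. Slc1a3 ran from 960 to 2073 CPM in the KO and from 988 to 1886 CPM in the WT, while Aldoc was steadier, from 6732 to 7106 CPM and from 6590 to 7684 CPM. Snap25, a neuronal gene, was also present, from 735 to 836 CPM in the KO and from 521 to 864 CPM in the WT. In such bulk material fewer cells of a type and less RNA per cell cannot be told apart. All levels are CPM, counts scaled to the library size with TMM factors, which do not correct for gene length, so levels are compared between libraries and not between genes.

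None of the 10 genes passed the threshold of 0.05 on the adjusted p of edgeR's quasi-likelihood test in KO over WT, where 0% of the 14990 genes passed. Fmr1 itself, at a log2 fold change of -3.53, did not pass this test (adjusted p 0.300). A gene that did not pass is therefore not shown to be unchanged. DESeq2 passed 8 genes and edgeR's exact test 9, none of them among the 10. None had an unadjusted p under 0.05 either, against 1.77% of all genes. The adjusted p was 1.00 for each of the 10, and the smallest unadjusted p of the 10 was 0.127, for Gss. The log2 fold change was above 0 for 3 genes and below 0 for 7, against 49.6% above and 50.4% below among all genes, and the median of the 10 was -0.05, against -0.0019 over all genes tested. The fit gave 95% intervals of the fold that stayed within 2-fold for all 10 genes. The lowest bound of the fold was 0.661, for Slc7a11, and the highest was 1.68, for Gss.

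**Figure D1:**
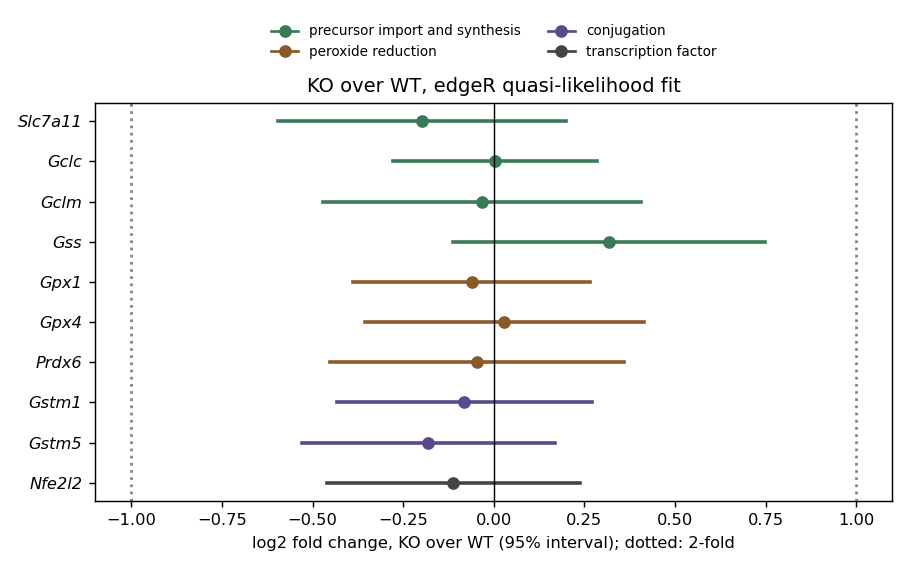
Log2 fold change of each of the 10 genes (KO over WT, x axis) with its 95% interval from edgeR's quasi-likelihood fit, coloured by role, with dotted lines at 2-fold. Every interval spans 0, and Gss lies farthest to the right at 0.32.

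Among the genes that supply and build glutathione, Gss had the largest difference and Gclc nearly none. Slc7a11, the cystine-glutamate exchanger on chromosome 3 (50364936 to 50499087, GRCm38.p6), stood at 63.3, 72.0 and 50.9 CPM in KO libraries 14, 16 and 18, against 73.2, 79.4 and 60.5 CPM in WT libraries 13, 15 and 17. The groups overlapped, with KO libraries 14 and 16 above WT library 17. Slc7a11 averaged 62.0 ± 10.6 CPM in the KO and 71.0 ± 9.63 CPM in the WT (SD, n = 3 each; log2 fold change -0.20, SE 0.17, exact permutation p = 0.4). With 1 library left out the value ran from -0.32 without KO library 16 to -0.07 without KO library 18, and it was -0.30 without WT library 17 and -0.10 without WT library 15. Adjusting for each library's ribosomal RNA share gave -0.48, with an edgeR quasi-likelihood p of 0.0342 before and 0.860 after adjustment over all genes. That share was 35.6% and 45.1% in KO libraries 14 and 16 and from 0.892% to 7.45% in the other libraries. The adjusted value therefore rests largely on KO library 18, and without KO libraries 14 and 16 the value was -0.46. Over the alternatives the adjusted p of Slc7a11 was at least 0.860.

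Gclc encodes the catalytic subunit of glutamate-cysteine ligase, the rate-limiting enzyme of the pathway, and lies on chromosome 9 (77754535 to 77794489). It measured 79.5, 77.0 and 72.3 CPM in the KO, against 79.9, 73.4 and 75.0 CPM in the WT. Its spread was small in both groups, at 4.78% of the mean in the KO and 4.47% in the WT. It averaged 76.3 ± 3.64 CPM in the KO and 76.1 ± 3.40 CPM in the WT (SD, n = 3 each; log2 fold change 0.0031, SE 0.12), and the 95% interval of the fold, 0.824 to 1.22, was the narrowest of the 10 genes.

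Gclm, the modifier subunit that makes the ligase more active, lies on chromosome 3 (122245487 to 122267215) and varied far more than its partner. Gclm measured 101, 82.2 and 63.1 CPM in the KO, against 94.1, 82.2 and 75.0 CPM in the WT. The KO libraries lay both above and below all the WT libraries, and the spread was 22.9% of the mean in the KO against 11.5% in the WT. It averaged 82.0 ± 18.8 CPM in the KO and 83.7 ± 9.65 CPM in the WT (SD, n = 3 each; log2 fold change -0.03, SE 0.19). Its direction turned without KO library 18 (0.13) and without WT library 13 (0.06).

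Gss, the synthetase that adds glycine in the last step, lies on chromosome 2 (155563181 to 155592810). It measured 20.6, 19.0 and 22.6 CPM in the KO, against 18.1, 18.8 and 12.97 CPM in the WT. Gss was the 1 gene of the 10 whose groups did not overlap, and it was higher in the KO. Among all genes 2.95% were higher in this way, 3.25% lower and 6.2% either, so 1 gene of 10 is close to the background. The gap was narrow: KO library 16 held 135 counts, with an exact Poisson 95% interval of 15.9 to 22.5 CPM for counting error only, and WT library 15 at 18.8 CPM lies inside it. Gss averaged 20.7 ± 1.78 CPM in the KO and 16.7 ± 3.21 CPM in the WT (SD, n = 3 each; log2 fold change 0.32, SE 0.19), with an exact permutation p of 0.1, the smallest that 3 libraries against 3 can give. WT library 17 set much of the difference, since without it the log2 fold change was 0.17. The value stayed above 0 in each alternative fit, between 0.17 and 0.46. In the authors' deposited table Gss has a log2 fold change of 0.32 with a p-value of 0.0413 and an adjusted p of 0.681.

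**Figure D2:**
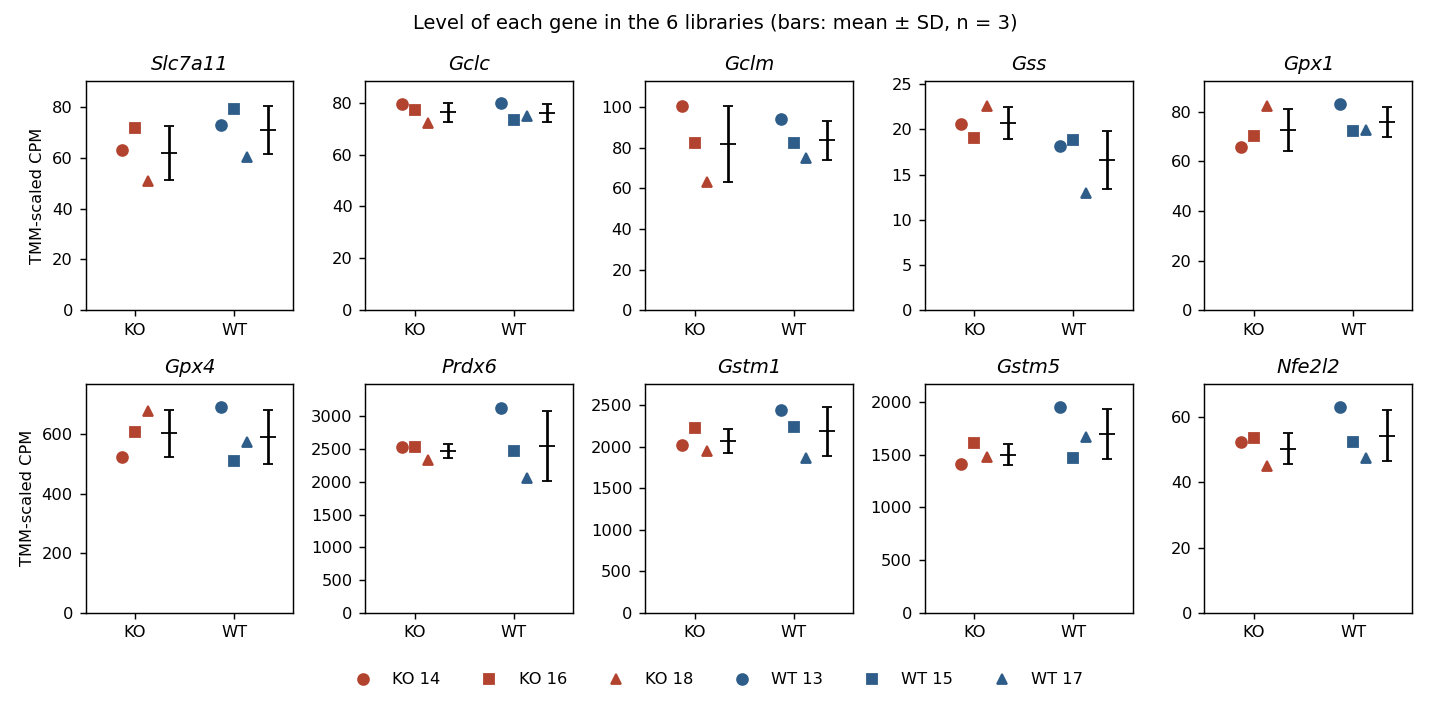
TMM-scaled CPM of each gene (y axis, from 0, a scale of its own in each panel) in KO libraries 14, 16 and 18 and WT libraries 13, 15 and 17, with the mean ± SD of each group beside the points. The groups overlap in every panel but that of Gss, and WT library 13 is the highest WT library in 8 panels.

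The enzymes that reduce peroxides had log2 fold changes between -0.06 and 0.03. Gpx1, a selenium-dependent glutathione peroxidase of the cytosol on chromosome 9 (108339080 to 108340342), measured 65.9, 70.0 and 82.2 CPM in the KO, against 83.0, 72.1 and 72.6 CPM in the WT. KO library 18 and WT library 13 stood at nearly the same high level, and Gpx1 averaged 72.7 ± 8.46 CPM in the KO and 75.9 ± 6.15 CPM in the WT (SD, n = 3 each). Gpx4, the peroxidase that reduces lipid peroxides in membranes and guards cells from ferroptosis, lies on chromosome 10 (80047166 to 80056439). Gpx4 measured 524, 607 and 680 CPM in the KO, against 691, 510 and 573 CPM in the WT, with means of 604 ± 78.2 CPM in the KO and 592 ± 91.8 CPM in the WT (SD, n = 3 each). Both peroxidases were thus ordered alike within the KO, from library 14 up to library 18.

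Prdx6, a peroxiredoxin that also repairs membrane phospholipids, lies on chromosome 1 (161240112 to 161251210). It measured 2534, 2528 and 2340 CPM in the KO, against 3124, 2466 and 2054 CPM in the WT. The 3 KO libraries lay inside the range of the WT libraries, and the spread was 4.48% of the mean in the KO against 21.2% in the WT. Prdx6 averaged 2468 ± 111 CPM in the KO and 2548 ± 539 CPM in the WT (SD, n = 3 each; log2 fold change -0.05, 95% interval of the fold 0.731 to 1.28). Whether the spread itself differs between genotypes was not tested.

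The 2 mu-class glutathione S-transferases, enzymes that attach glutathione to reactive compounds, were both slightly lower in mean in the KO. Gstm1 and Gstm5 lie near each other on chromosome 3, Gstm1 at 108012250 to 108017973 and Gstm5 at 107895854 to 107898685. Gstm1 measured 2027, 2230 and 1946 CPM in the KO, against 2450, 2240 and 1871 CPM in the WT (means 2068 ± 146 CPM in the KO and 2187 ± 293 CPM in the WT, SD, n = 3 each). Gstm5 measured 1412, 1608 and 1474 CPM in the KO, against 1949, 1474 and 1673 CPM in the WT, with means of 1498 ± 99.8 CPM in the KO and 1698 ± 239 CPM in the WT (SD, n = 3 each; log2 fold change -0.18, SE 0.15). For both genes WT library 13 was the highest of all libraries, and the other WT libraries lay among or beside the KO libraries. Gstm5 was below 0 in each alternative fit, from -0.26 to -0.07 (the value without WT library 13), without passing the threshold (adjusted p of at least 0.920 in these fits).

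The expected counts of Gstm5, Gpx4 and Slc7a11 were not whole numbers in 12 of 12 entries (tolerance 0.001), and those of Gclm in 6, as happens where RSEM divides a read between features. Gstm1, Gclc, Gss, Gpx1, Prdx6 and Nfe2l2 had whole numbers in all entries, as did the other mu-class genes Gstm2, Gstm4, Gstm6 and Gstm7. The count table does not show which features the divided reads were shared with. The levels of Gstm5, Gpx4, Slc7a11 and Gclm are therefore less certain than the counting error alone implies. Of the other mu-class genes tested, Gstm7 averaged 16.01 ± 1.26 and 15.5 ± 1.77 CPM, Gstm4 8.89 ± 2.29 and 9.47 ± 0.866 CPM, Gstm6 5.95 ± 2.07 and 5.75 ± 1.71 CPM and Gstm2 2.27 ± 0.576 and 2.60 ± 1.49 CPM in the KO and the WT (SD, n = 3 each).

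Nfe2l2, which encodes NRF2, lies on chromosome 2 (75675513 to 75704663). It measured 52.4, 53.7 and 45.0 CPM in the KO, against 63.0, 52.5 and 47.6 CPM in the WT. All KO libraries lay below WT library 13, and KO library 18 was the lowest of all. Nfe2l2 averaged 50.4 ± 4.69 CPM in the KO and 54.3 ± 7.87 CPM in the WT (SD, n = 3 each; log2 fold change -0.11, SE 0.15), and without WT library 13 the log2 fold change was 0.0078. NRF2 is known to be controlled mainly through the stability of the protein, which ribosome-bound RNA does not measure. The 3 genes with an antioxidant response element match in their window, Nfe2l2, Gstm5 and Gclm, had log2 fold changes of -0.11, -0.18 and -0.03.

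Among the 10 genes 1 WT library stood out, while the order of the libraries differed between genes. Pearson's r of log2 CPM over the 6 libraries ran from -0.45 for Gss with Gstm5 to 0.90 for Gstm1 with Nfe2l2. WT library 13 was the highest of all 6 libraries in 7 of the 10 genes, while 19.6% of all genes tested were highest there. Relative to the WT mean, the median of the 10 genes was -0.07, 0.01 and -0.13 in KO libraries 14, 16 and 18, and 0.17, -0.03 and -0.17 in WT libraries 13, 15 and 17. The range over the WT libraries was wider than the range over the KO libraries and held all 3 KO values. Without WT library 13 the log2 fold change was above 0 for 8 of the 10 genes and below 0 for 2, and the median of the 10 was 0.02. The side on which most of the 10 genes fall thus rests on that library.

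**Figure D3:**
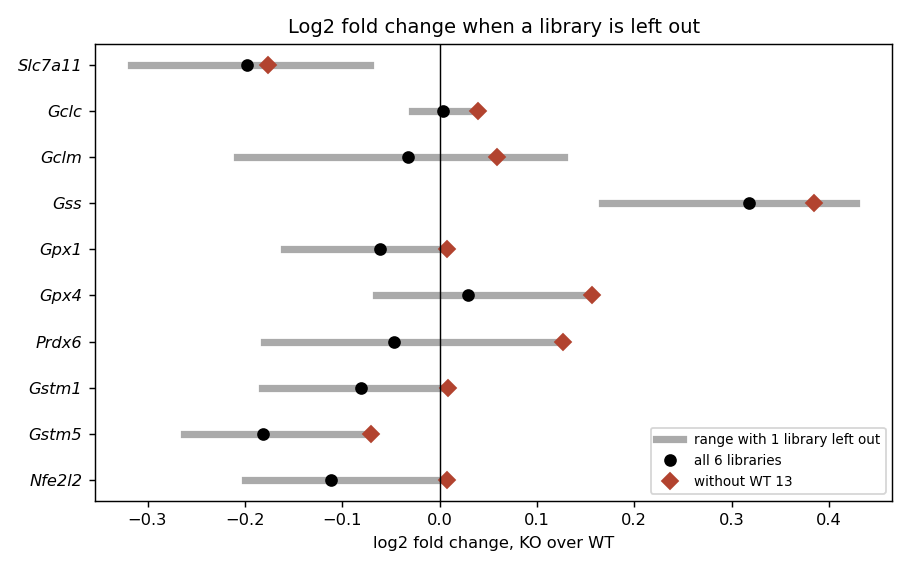
Log2 fold change of each gene (KO over WT, x axis) with all 6 libraries, without WT library 13, and the range over the fits that each leave out 1 library. The range crosses 0 for 7 genes, and stays above 0 for Gss and below 0 for Slc7a11 and Gstm5.

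Markers of other cell types varied between the same libraries. The median of 12 neuron markers relative to the WT mean was 0.01, -0.24 and 0.52 in KO libraries 14, 16 and 18, and -0.57, 0.20 and 0.40 in WT libraries 13, 15 and 17. All 12 were tested, and their summed level ran from 1797 to 2499 CPM in the KO and from 1304 to 2423 CPM in the WT. The median of 10 oligodendrocyte markers was 0.07, -0.70 and 0.72 in the KO and -0.57, -0.0063 and 0.51 in the WT, with summed levels from 637 to 1472 CPM in the KO and from 700 to 1246 CPM in the WT. The median of 15 astrocyte markers was 0.10, 0.18 and -0.32 in the KO, against 0.24, 0.07 and -0.32 in the WT. By these medians, WT library 13, where the 10 genes were high, was low in neuron and oligodendrocyte markers and highest in astrocyte markers. WT library 17 showed the opposite. KO library 16 lay on the same side as WT library 13 in all 3 marker medians, at -0.24, -0.70 and 0.18 for neuron, oligodendrocyte and astrocyte markers. The median of the 10 genes was only 0.01 in KO library 16. The median of the microglia markers was lower in each KO library than in each WT library, while their summed level overlapped. Of 12 tested, 11 were below 0 and 1 above, with a median log2 fold change of -0.23, and the groups did not overlap in 3, all lower in the KO, against 3.25% of all genes. Their median relative to the WT mean was -0.12, -0.28 and -0.29 in the KO, against 0.01, 0.01 and -0.04 in the WT, and their summed level ran from 59.5 to 69.7 CPM in the KO and from 64.5 to 83.2 CPM in the WT. None of the 12 passed the adjusted threshold, and C1qc, a complement gene of microglia, was the 1 with an unadjusted edgeR quasi-likelihood p under 0.05, at a log2 fold change of -1.28. Median log2 fold changes were 0.09 for 8 oligodendrocyte precursor markers, -0.07 for 9 endothelial, 0.02 for 11 mural and fibroblast, -0.47 for 6 ependymal and choroid plexus markers and 0.27 for 5 blood cell genes. The part of these markers in the levels of the 10 genes was not tested. Scaling the libraries to the astrocyte markers gave log2 fold changes from -0.19 for Slc7a11 to 0.38 for Gss, with a median of -0.02 over the 10 genes, and no gene passed.

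**Figure D4:**
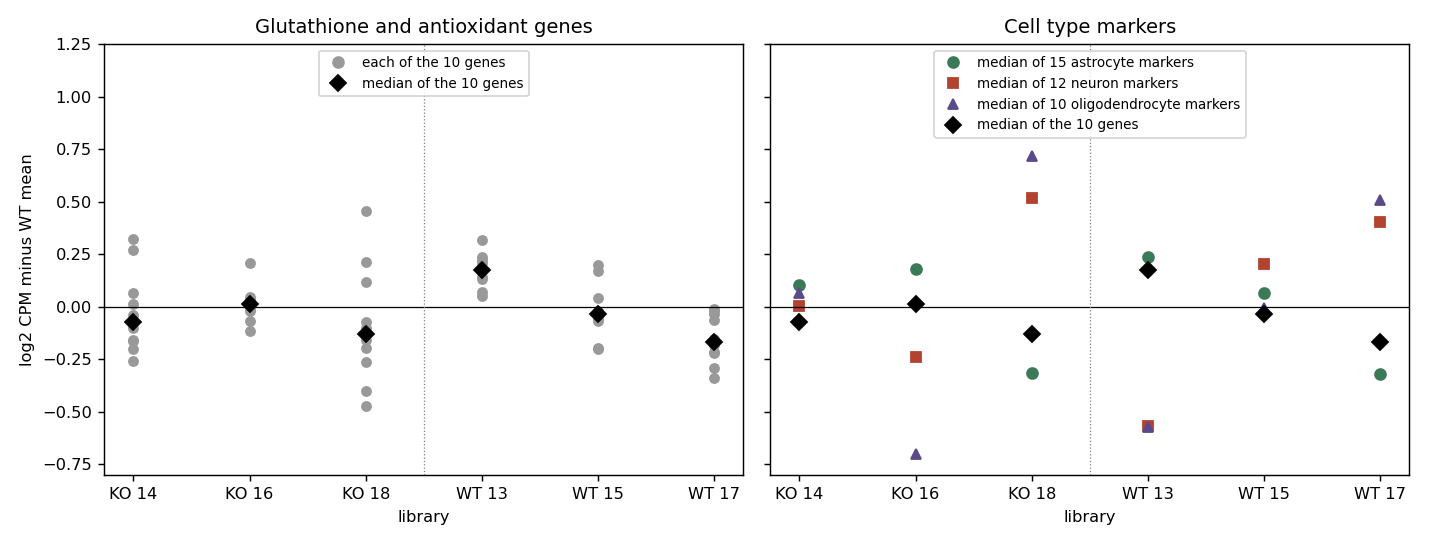
Log2 CPM minus the WT mean (y axis) in each library, for each of the 10 genes with their median on the left, and for the medians of the astrocyte, neuron and oligodendrocyte markers beside the median of the 10 genes on the right. WT library 13 has the highest median of the 10 genes, 0.17, and the lowest neuron marker median, -0.57.

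The titles carry a number pair that opens with 5 for libraries 14, 16 and 13 and with 6 for libraries 18, 15 and 17, and the labels do not say what it stands for. Within 5, Gpx1, Gpx4 and Prdx6 differed by -0.29, -0.29 and -0.30 in KO minus WT on the log2 scale, and within 6 by 0.18, 0.33 and 0.06. The direction of these 3 genes thus differed between the number pairs, each with 1 library in an arm and no test. Within 5 and within 6, Gss differed by 0.12 and 0.53, Gclc by -0.03 and -0.04, Gclm by -0.05 and -0.32, Slc7a11 by -0.12 and -0.45, Gstm1 by -0.20 and -0.07, Gstm5 by -0.37 and -0.09 and Nfe2l2 by -0.25 and -0.15. With this number as a covariate the median of the 10 genes was -0.13, with 2 above 0 and 8 below, and none passed.

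In the wider pathway 98 further genes were tested in 5 lists, and 0 of them passed, with 0 at an unadjusted p under 0.05 against the 1.77% of all genes. Of 21 genes tested for glutathione supply, recycling and breakdown, 7 were above 0 and 14 below, with a median log2 fold change of -0.03. Glrx2, a mitochondrial glutaredoxin that reduces glutathionylated proteins, measured 81.3, 79.8 and 80.6 CPM in the KO, against 96.1, 95.2 and 96.7 CPM in the WT. Its groups did not overlap and each was tight, with SDs of 0.740 CPM in the KO and 0.737 CPM in the WT (log2 fold change -0.25, SE 0.12, edgeR quasi-likelihood adjusted p = 1.00 and unadjusted p = 0.0642). With 1 library left out the log2 fold change of Glrx2 ranged from -0.26 to -0.25. Counting error at this level is wider than these SDs. Gclc, at a close 77.0 CPM in KO library 16, had an exact Poisson 95% interval of 70.7 to 83.8 CPM. The small spread of Glrx2 is therefore no measure of how well its difference would repeat. Nnt, a mitochondrial enzyme that makes NADPH for glutathione reduction, measured 10.03, 20.3 and 21.0 CPM in the KO, against 42.7, 23.2 and 18.6 CPM in the WT, and its log2 fold change of -0.72 (SE 0.37) was -0.29 without WT library 13 and -0.45 without KO library 14. Gsr, which reduces oxidised glutathione, averaged 53.0 ± 5.67 CPM in the KO and 47.5 ± 7.08 CPM in the WT, and Slc3a2, the partner chain of the cystine exchanger, 120 ± 20.2 CPM in the KO and 121 ± 22.5 CPM in the WT (SD, n = 3 each).

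Of the other glutathione peroxidases and transferases, 19 of 25 were tested, 5 above 0 and 14 below, with a median of -0.08. The smallest p of the list belonged to Gpx3, a secreted peroxidase, at 0.811 ± 0.426 and 1.37 ± 0.774 CPM, and to Gstk1, a mitochondrial and peroxisomal transferase, at 63.6 ± 4.70 and 68.9 ± 8.02 CPM in the KO and the WT (SD, n = 3 each). The 25 other peroxiredoxin, thioredoxin and superoxide enzymes were 11 above 0 and 14 below, with a median of -0.02. Msrb1, a selenoprotein that repairs oxidised methionine, measured 45.2, 46.9 and 48.0 CPM in the KO, against 58.0, 51.0 and 51.4 CPM in the WT, without overlap (log2 fold change -0.20, SE 0.12). Txnip, which binds and inhibits thioredoxin, averaged 5.91 ± 1.64 CPM in the KO and 8.25 ± 3.22 CPM in the WT. Srxn1, which restores oxidised peroxiredoxins, averaged 109 ± 2.37 CPM in the KO and 107 ± 13.3 CPM in the WT (SD, n = 3 each). Catalase (Cat) averaged 184 ± 3.76 CPM in the KO and 184 ± 15.97 CPM in the WT, and Sod2, the mitochondrial superoxide dismutase, 238 ± 9.36 CPM in the KO and 233 ± 6.75 CPM in the WT (SD, n = 3 each).

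The partners, regulators and targets of NRF2 were 14 above 0 and 8 below of 22 tested, with a median of 0.04. Without WT library 15 that median was -0.0093, and without KO libraries 14 and 16 it was -0.050. Ftl1, the ferritin light chain that stores iron, measured 160, 173 and 197 CPM in the KO, against 154, 144 and 96.0 CPM in the WT. The groups of Ftl1 did not overlap (log2 fold change 0.43, SE 0.20, edgeR quasi-likelihood adjusted p = 1.00 and unadjusted p = 0.0615), and without WT library 17 the value was 0.25. Its counts were not whole in 11 of 12 entries, so reads were shared with other features. Nfe2l1, a relative of NRF2 known for inducing proteasome genes, measured 112, 131 and 112 CPM in the KO, against 102, 105 and 102 CPM in the WT, also without overlap (log2 fold change 0.20, SE 0.13), and without KO library 16 the value was 0.12. The log2 fold changes of the list ran from -0.30 for Abcc4, an export pump, to 0.79 for Maff, a small MAF partner of NRF2 at 2.06 ± 1.21 CPM in the KO and 1.14 ± 0.551 CPM in the WT (SD, n = 3 each). Of the NRF2 targets in between, Nqo1 averaged 22.6 ± 2.59 CPM in the KO and 22.5 ± 0.953 CPM in the WT, and Hmox1 14.7 ± 3.86 CPM in the KO and 14.1 ± 3.56 CPM in the WT (SD, n = 3 each). Keap1, the inhibitor that holds NRF2 in the cytosol, averaged 58.7 ± 9.92 CPM in the KO and 55.6 ± 6.62 CPM in the WT.

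Gpx1 and Gpx4 need selenocysteine. The selenoprotein synthesis list also holds Selenop and Lrp8, which serve selenium supply. Its 11 genes had a median log2 fold change of -0.09, 5 above 0 and 6 below. That median was 0.045 without KO library 18 and 0.028 without WT library 13. Sepsecs, the enzyme that makes selenocysteine on its transfer RNA, measured 15.99, 14.5 and 16.5 CPM in the KO, against 17.6, 20.7 and 21.2 CPM in the WT, without overlap (log2 fold change -0.34, SE 0.16, edgeR quasi-likelihood adjusted p = 1.00 and unadjusted p = 0.0611). Scly, a lyase that recovers selenium from selenocysteine, averaged 14.98 ± 1.65 CPM in the KO and 12.9 ± 2.44 CPM in the WT (SD, n = 3 each). Over the 5 lists the groups did not overlap in 5 of 98 genes, 2 higher and 3 lower in the KO, close to the 6.2% of all genes.

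**Figure D5:**
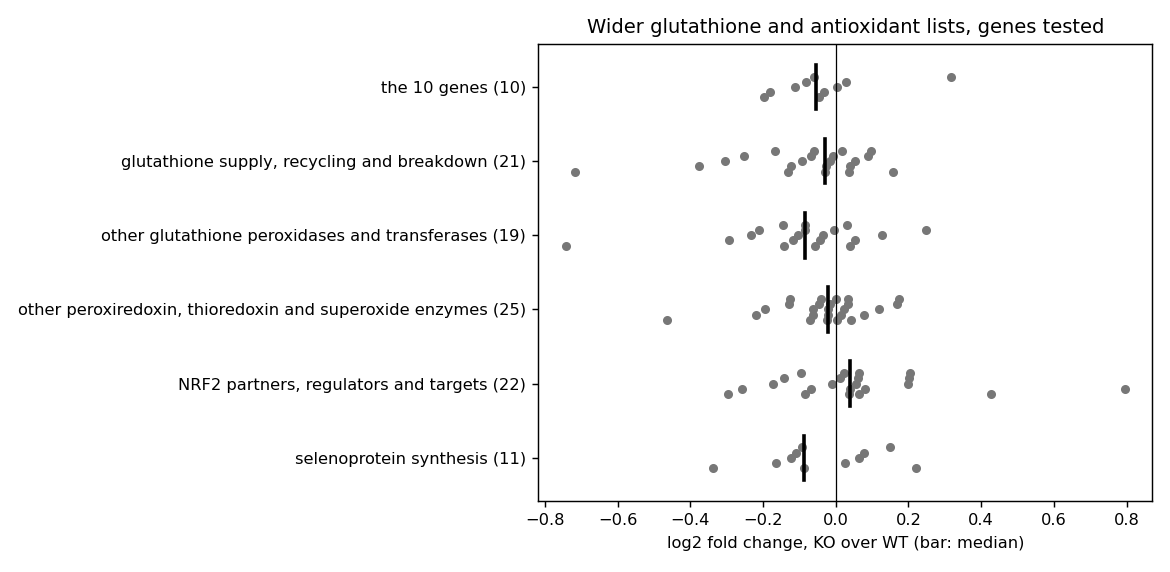
Log2 fold change (KO over WT, x axis) of each gene tested in the 5 wider lists and of the 10 genes, with a bar at the median of each list. The list medians lie between -0.09 and 0.04 with all libraries, and each of the 5 wider medians changes sign in at least 1 alternative fit.

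For each of the 10 genes the gene with the most similar pattern over the 6 libraries was sought among 9348 others with a mean of at least 10 CPM, by Pearson's r of log2 CPM. The nearest were Ints8 for Slc7a11, Fermt2 for Gclc, Kmt5b for Gclm, Shd for Gss, Gatd1 for Gpx1, Cutc for Gpx4, Iscu for Prdx6, Orai1 for Gstm1, Jagn1 for Gstm5 and Snx3 for Nfe2l2, with r between 0.985 and 0.996. Each is the highest of many values over only 6 libraries, which also differ in depth and in cell type markers, so it is a description, and 0 of the 10 nearest genes was another of the 10.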

How the data were processed

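Gene-level expected counts for 12 entries, unscaled, were deposited by the authors. The submitters' processing notes list STAR 2.5.3a, RSEM 1.3.0, edgeR and build mm10; the annotation release and strand setting were not stated in the sources used here. Libraries were stranded total RNA depleted of ribosomal RNA, read as 100 base pairs paired-end, per the labels' protocols. In the authors' deposited comparison table each gene has a log2 fold change, an average log2 CPM and p-values.

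The 2 entries of each library had a median chi-square per feature of 0.467 to 0.494 (summed count of at least 20), against 2.93 to 18.8 between libraries of a group. Totals included the ribosomal RNA features, so the values between libraries also hold their unequal shares. The entries differed for most features by about the sampling noise. Their chi-square per degree of freedom was 1.17 to 2.34, so some features differed by more. The entries were summed, rounded and counted as 1 sample, which gave 3 libraries a group. Genes were filtered with filterByExpr, scaled by TMM and tested with edgeR 4.0.16's quasi-likelihood test (limma 3.58.1, R 4.3.3), adjusted by Benjamini-Hochberg over all genes. Total degrees of freedom were 8.24. SEs come from the F statistic. Permutation tests were exact and two-sided on log2 CPM (prior count 2). The script was tested on simulated data. Alternatives were DESeq2 1.42.0, edgeR's exact test, limma voom, RLE and astrocyte marker scaling, no ribosomal RNA features, no filter, 2 covariates and libraries left out.

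The 10 genes and all lists were chosen with earlier results of these data known. Named in the text are the 10 genes, Fmr1, the 2 genes of smallest p per wider list and the gene most alike to each of the 10. Other genes were named after their values were seen. The planned comparison of protein sequences was not made.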

Additional observations from a re-analysis of the deposited data

How the results depend on the processing

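No gene of the 10 passed the threshold in any of the 16 alternative fits. Across all genes, 0 passed with edgeR's quasi-likelihood test (265 had p under 0.05 before adjustment), 8 with DESeq2, 9 with edgeR's exact test, 0 with limma voom, 6 with no filter on low counts, 1 when each library's ribosomal RNA share was a covariate, and between 0 and 2 with 1 library left out (2 without KO library 18, 1 without WT library 15). The median of the 10 genes ran from -0.14 to 0.02 with 1 library left out and from -0.14 to -0.02 in the other fits, and no scaling moved the median of all genes by more than 0.1. Gss, Slc7a11 and Gstm5 kept their direction in all 16 fits. Of the 160 values of the 10 genes, 20 had the opposite direction, all in the other 7 genes; the cause was not tested. With 1 library left out, the log2 fold change ran from -0.029 to 0.041 for Gclc, -0.21 to 0.13 for Gclm, -0.16 to 0.0082 for Gpx1, -0.065 to 0.16 for Gpx4, -0.18 to 0.13 for Prdx6, -0.18 to 0.0088 for Gstm1 and -0.20 to 0.0078 for Nfe2l2. Gclc was also at -0.0025 with the ribosomal RNA features removed, -0.0031 with no filter, -0.033 with the title number as a covariate, -0.050 with that RNA share as a covariate and -0.048 without KO libraries 14 and 16 together. Gpx1 was at 0.090 with the share as a covariate and at 0.14 without KO libraries 14 and 16. With these 2 libraries left out, the lone KO library is assumed to vary like the WT libraries. The medians of the 5 wider lists all crossed 0 over the alternatives: from -0.13 to 0.023 for glutathione supply, -0.16 to 0.0032 for other peroxidases and transferases, -0.077 to 0.067 for peroxiredoxin and related enzymes, -0.050 to 0.074 for the NRF2 list and -0.12 to 0.045 for selenoprotein synthesis. No paired analysis was made because the labels give no pairing of KO with WT libraries. Depth limits Gss most, with 135 counts in KO library 16, the smallest count of the 10 genes in any library.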
